A study of Arabidopsis thaliana with 17 samples.

Results

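The comparison set open chromatin of captured Arabidopsis thaliana seed coat nuclei against that of whole roots. DNase I cuts DNA that is not packed in nucleosomes, and the short fragments between neighbouring cuts mark regulatory sites such as promoters and enhancers. Of the 11 peak lists that carry the 6.8M mark, the 5 from these tissues were used: 3 from seed coat (a single library at 4 days past anthesis, DPA, a pool of 2 other libraries at 4 DPA and a pool of 2 libraries at 7 DPA) and 2 from whole root, 1 library each. Together they come from 7 of the series' libraries, all in the Col-0 background. Both groups were INTACT lines, in which a nuclear envelope fusion protein (NTF) is biotinylated by birA, itself driven by the ACT2 promoter in every line, so that tagged nuclei can be pulled out. The GL2 promoter drove the fusion in the seed coat line and the UBQ10 promoter in the root line. Roots came from 7-day seedlings on agar plates with sucrose under long days, and seed coats from siliques of plants grown in soil. Tissue, age, growth medium and driving promoter therefore differ together and cannot be told apart. The labels call the pooled libraries biological replicates and say nothing of how the other libraries relate, so the spread between lists may be partly technical.

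The seed coat grows from the integuments of the ovule. Its inner layer makes proanthocyanidins, the tannins that brown the ripe seed, and its outer epidermis makes the mucilage that swells around a wet seed. GL2 encodes a homeodomain factor active in epidermal cells, among them the non-hair cells of the root and the outer seed coat. Roots take up nitrate, ammonium, phosphate, iron and potassium through dedicated transporters, and in Arabidopsis they also make particular triterpenes and store beta-glucosidases in endoplasmic reticulum (ER) bodies.

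Each list was cut to its best 26671 nuclear peaks by the authors' score, and overlapping peaks were merged into 44397 sites. A site's percentile in a list is the rank of its highest peak, where 100 is the best. Seed coat-only sites had a peak in all 3 seed coat lists and in neither root list, and numbered 4828, or 10.9% of sites. Root-only sites had the reverse and numbered 5825, or 13.1%. A further 12420 sites were in all 5 lists. A Fisher's exact test on 3 against 2 lists cannot go below p = 0.1 at any site, so these counts carry no test. Without whole root replicate 1, where a single root list had to hold a peak, the root-only count was 9019. Each site was assigned to the nearest transcription start (TSS) of a protein-coding gene, which does not show which gene it controls, and an open site is not a measure of expression.

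A few separating sites are shown first, because they carry the motifs that differed between the directions. The sequences are from RefSeq's TAIR10.1 assembly, plus strand, 5′ to 3′, and all lie outside annotated exons. In the root-only sites, capitals mark the W-box, the element bound by WRKY factors.
AHA2: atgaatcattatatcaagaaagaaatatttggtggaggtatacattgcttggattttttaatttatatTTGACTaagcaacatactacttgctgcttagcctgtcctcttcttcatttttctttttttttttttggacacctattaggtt
NRT1.1: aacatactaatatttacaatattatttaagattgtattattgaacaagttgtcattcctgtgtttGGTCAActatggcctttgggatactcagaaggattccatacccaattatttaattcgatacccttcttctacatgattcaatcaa
CYP705A12: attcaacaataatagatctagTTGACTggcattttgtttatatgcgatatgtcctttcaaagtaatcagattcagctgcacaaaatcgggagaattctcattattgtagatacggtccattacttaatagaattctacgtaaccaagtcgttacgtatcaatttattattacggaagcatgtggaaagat
WRKY65: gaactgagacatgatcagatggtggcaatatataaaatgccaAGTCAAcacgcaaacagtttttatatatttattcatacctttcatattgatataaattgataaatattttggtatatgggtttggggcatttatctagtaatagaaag

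The AHA2 site is at chr4:14776501-14776650, 328 bp upstream of the gene of a plasma membrane proton pump. The NRT1.1 site, near the dual-affinity nitrate transporter gene, is at chr1:4102641-4102790. The CYP705A12 site, near a cytochrome P450 gene of the marneral cluster, is at chr5:17027741-17027930, and that of WRKY65 at chr1:10233681-10233830. In the seed coat-only sites below, capitals mark the CArG box of MADS factors near BRC1 and AG, and the G-box, CACGTG, near RGF1.
BRC1: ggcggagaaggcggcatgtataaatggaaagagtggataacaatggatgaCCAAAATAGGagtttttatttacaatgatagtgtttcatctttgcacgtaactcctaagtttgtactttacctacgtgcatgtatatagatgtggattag
AG: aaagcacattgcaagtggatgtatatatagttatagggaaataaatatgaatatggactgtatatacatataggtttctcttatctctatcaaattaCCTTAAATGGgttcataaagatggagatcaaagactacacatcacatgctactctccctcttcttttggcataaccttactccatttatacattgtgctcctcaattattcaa
RGF1: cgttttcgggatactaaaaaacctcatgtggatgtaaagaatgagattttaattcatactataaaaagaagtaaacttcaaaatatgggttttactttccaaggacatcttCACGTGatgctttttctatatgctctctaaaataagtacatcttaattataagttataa

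The BRC1 site, at chr3:6380801-6380950, belongs to the gene of a TCP factor that restrains bud outgrowth. The AG site, at chr4:10381161-10381370, lies 1591 bp upstream of the start of the floral organ identity gene AGAMOUS. The RGF1 site, near the gene of a root growth factor peptide, is at chr5:24468241-24468410.

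Lists of a tissue overlapped more than lists of different tissues. The Jaccard index was the base pairs in peaks of both lists over those in peaks of either. It was 0.537 for the 4 DPA lists, 0.436 and 0.445 between these and the 7 DPA pool, and 0.428 for the root pair. All 6 pairs of a seed coat with a root list lay lower, between 0.238 and 0.275. The mean within groups exceeded that between groups by 0.205, more than in any other of the 10 possible labellings of the lists (one-sided exact permutation test, p = 0.1, which is the lowest p this design allows).

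The lines' own promoters were looked at first. Across the GL2 promoter the 4 sites within 3 kb of the gene's start that all seed coat lists held stood at percentiles of 98.4 to 99.99 in each of them, and the whole root lists ranked the same places at most at 80.6. At the site 321 bp upstream of GL2 (chromosome 1, 30036521 to 30036750) the values were 99.7, 99.9 and 99.6 in the seed coat lists and 80.6 and 62.4 in root, a difference of 28.2 points (adjusted p = 0.00306). This test is limma's, run on the percentiles of the 12420 shared sites with Benjamini-Hochberg adjustment, and adjusted p-values below are of the same kind. The seed coat-only site assigned to GC5 (30034721 to 30034970), second by mean percentile of all seed coat-only sites, lies 2111 bp upstream of GL2. At UBQ10 the direction turned. Its upstream site (chromosome 4, 2717461 to 2717830) stood at 99.8 and 99.4 in root, at 63.7 and 81.6 in the 4 DPA lists, and had no peak in the 7 DPA pool. The seed coat line carries GL2 promoter DNA and the root line UBQ10 promoter DNA in a transgene as well, and the part of these copies in the values was not tested. A root-only site 255 bp upstream of ACT2 (chromosome 3, 6474381 to 6474530) stood at 99.3 and 99.1, and the ACT2 promoter drives birA in both lines. A site 90 bp from it, at the start of ACT2 (6474621 to 6474810), stood at 93.9, 91.5 and 85.4 in the seed coat lists and at 98.8 in whole root replicate 1, with no peak in replicate 2. Of the 6 constitutive genes with a site, ACT2 among them, 3 had a root-only site and 0 a seed coat-only one, against 21.9% and 20.9% of all genes with a site. These loci were chosen after their values were seen.

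Sequence like that of the mitochondrion was also present among the seed coat-only sites. On chromosome 2, from 3239038 to 3509765, lie stretches at least 95% identical to the mitochondrial genome, and this region held 45 seed coat-only sites and 0 root-only sites. The 45 stood at mean percentiles from 82.4 with a median of 97.1. Together with a site elsewhere that is like organelle DNA, the sites numbered 46, or 0.953% of seed coat-only sites. They include 5 of the 10 highest-ranked seed coat-only sites (near AT2G07658, AT2G07715, AT2G07739, AT2G07667 and AT2G07669). Those near AT2G07658, AT2G07715 and AT2G07739 also had a peak in all 6 hair and non-hair lists and both flower lists, and those near AT2G07658 and AT2G07715 in the deeper list of whole root replicate 1. Reads from organelles cannot be told apart from reads of this insertion. Without them the number of listed genes with a separating site was 207, as with them.

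Genes of proanthocyanidin and flavonoid synthesis had seed coat-only sites and no root-only site. Of 20 genes, 16 had any site, and 9 of these had a seed coat-only site, against 20.9% of all genes with a site. Of the list's 34 sites, 12 were seed coat-only, against 10.9% of all sites. With the best 13335 peaks of each list, 5 genes counted and 1 had a root-only site, as 1 did without the 7 DPA pool. When every deposited list of whole root had to lack a peak, 7 genes had a seed coat-only site. TT7, the flavonoid 3′-hydroxylase gene, had 3 seed coat-only sites. The highest (chromosome 5, 2558121 to 2558330) stood at 98.6, 98.99 and 98.2 in the 4 DPA library, the 4 DPA pool and the 7 DPA pool. The chalcone synthase gene TT4 had a site in its 5′ UTR at 82.9, 70.7 and 82.5. TT1, a zinc finger factor of the inner layer, stood at 55.8, 65.7 and 37.0.

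For TT2 and TT8, the MYB and bHLH activators of the pathway, the 7 DPA value was above both 4 DPA values. The TT2 site 38 bp upstream (chromosome 5, 13726621 to 13726790) stood at 16.0 and 18.9 in the 4 DPA lists and at 68.7 in the 7 DPA pool. Both seed coat-only sites of TT8 had the same order. The one 706 bp upstream (chromosome 4, 6181081 to 6181270) stood at 6.83, 36.6 and 77.5. The deeper list of whole root replicate 1, made without the read mark, held a peak there. The one next to the start stood at 3.55, 42.8 and 72.8. These 4 DPA percentiles spread widely between the lists of one stage, and there is 1 list at 7 DPA, so the stages were not tested. Of the 12 seed coat-only sites of these pathway genes, 5 stood higher at 7 DPA than in both 4 DPA lists (41.7%) and 4 lower (33.3%). Over all seed coat-only sites the shares were 37.2% and 39.8%, so the sites as a whole had no direction. BAN and TT12, a reductase and a transporter gene of the last steps, had no site, nor had AHA10 and TT15. At the shared sites of the list, limma called 5 of 10 higher in seed coat and 1 higher in root (adjusted p under 0.05), against 23.3% and 11.6% of all shared sites. The latter was DFR, the dihydroflavonol reductase gene, whose site 113 bp upstream stood at 29.3 in seed coat and 79.2 in root on average (limma, adjusted p = 0.0079). Among the former, TT5, the chalcone isomerase gene, stood at 62.6 and 16.6 (adjusted p = 0.0216).

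**Figure D1:**
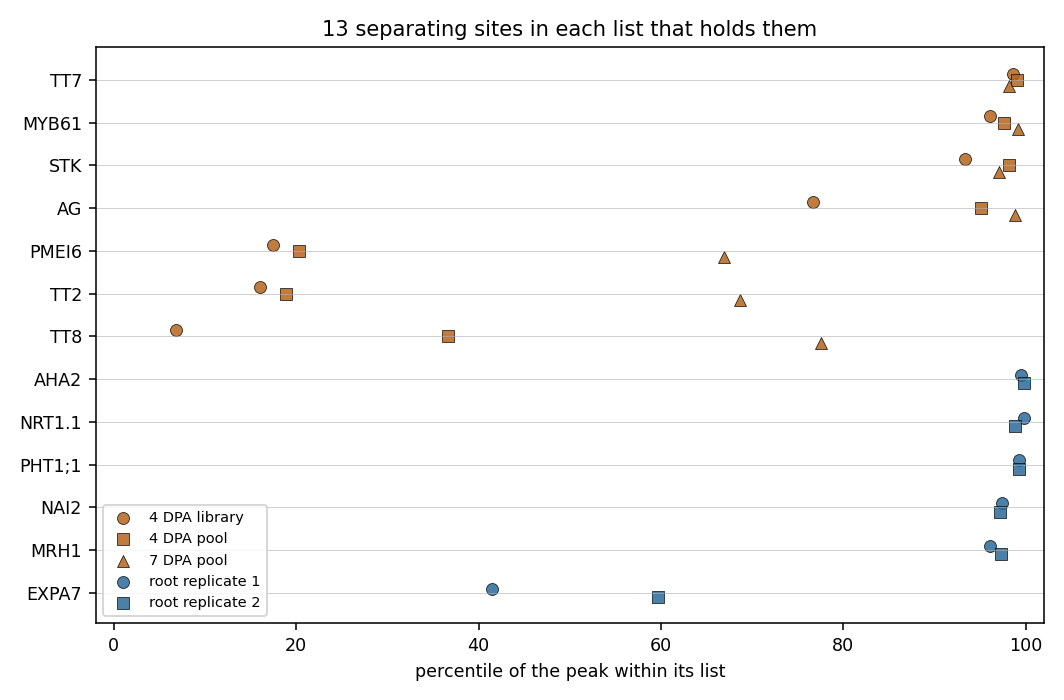
Percentile within its list (x axis, 100 is the best-ranked peak) of 13 separating sites, named by their nearest gene (rows). Brown circles, squares and triangles are the 4 DPA library, the 4 DPA pool and the 7 DPA pool, and blue circles and squares are whole root replicates 1 and 2; points are shifted slightly up or down so that equal values can be seen. TT7, MYB61 and STK stood above 93 in every seed coat list, whereas PMEI6, TT2 and TT8 stood at or below 36.6 at 4 DPA and above 66 at 7 DPA.

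Genes of mucilage and the seed coat epidermis had sites of both directions. All 28 had a site, 11 a seed coat-only and 10 a root-only one, and 7 had both, against 20.9%, 21.9% and 4.46% of genes with a site. These genes averaged 4.61 sites each, and all genes with a site 2.24, so more of them could hold a separating site. Of their 129 sites, 15.5% were seed coat-only and 8.53% root-only, near the 10.9% and 13.1% of all sites. MYB61, a factor needed for mucilage, had the highest one (chromosome 1, 3084641 to 3084790), at 96.0, 97.6 and 99.2. The beta-xylosidase gene BXL1 had sites at 99.1, 99.8 and 90.4 in an intron and at 83.7, 90.2 and 98.5 upstream. The latter ended 10 bp before a root-only site of the same gene at 52.5 and 56.7, and merging peaks up to 100 bp apart turned the sign there.

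PMEI6, the pectin methylesterase inhibitor gene of mucilage release, had a site 155 bp upstream (chromosome 2, 19544941 to 19545190) at 17.5, 20.3 and 66.9. GAUT11, a galacturonosyltransferase gene, had one at 6.83, 13.3 and 64.97. In this list 12 of 20 seed coat-only sites stood higher in the 7 DPA pool than in both 4 DPA lists and 7 lower, against 37.2% and 39.8% of all seed coat-only sites. NARS1, a NAC gene of integument development, had both kinds within 150 bp of each other, the seed coat-only site at 68.7, 81.2 and 67.8 and the root-only one at 84.0 and 90.05. The cell wall regulator KNAT7 had a higher root-only site (77.2 and 86.7) than seed coat-only site (16.0, 36.6 and 37.0). At shared sites of this list 9 of 35 were called higher in seed coat, near the 23.3% of all shared sites, and 2 in root, among the former MUM2, a beta-galactosidase gene, with 70.1 in seed coat and 17.9 in root at a site in an intron (adjusted p = 0.0109).

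MADS genes of floral organs and ovules had the highest share of genes with a seed coat-only site among the lists. Of 16 genes with a site, 12 had one and 0 had a root-only site, against 20.9% and 21.9% of all genes with a site. When the 7 DPA pool or whole root replicate 1 was left out, 1 had a root-only site. Of their 54 sites, 35.2% were seed coat-only, against 10.9% of all sites. STK, which specifies ovules, had a site 1364 bp upstream (chromosome 4, 6242501 to 6242790) at 93.3, 98.1 and 97.1. AG, shown above, stood at 76.7, 95.1 and 98.9 and had 2 further sites. AP3, a petal and stamen gene, had a site 51 bp upstream (chromosome 3, 20121241 to 20121490) at 86.9, 97.2 and 96.2. SEP2, a cofactor of the organ identity genes, stood at 91.3, 89.7 and 94.4. The valve margin genes SHP1 and SHP2 had sites with means of 86.8 and 91.5, and SHP1 stood at 95.2 and 97.5 at 4 DPA and 67.8 at 7 DPA. PI, FUL, AP1 and AGL63 had sites and no separating one. Of the 6 shared sites 4 were called higher in seed coat, against 23.3% of all shared sites. The largest difference was at AP1 (89.6 against 35.1, limma adjusted p = 0.00251).

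Of the 28 photosynthesis genes with a site, 16 had a seed coat-only and 2 a root-only one, against 20.9% and 21.9% of all genes with a site. Of their 52 sites, 32.7% were seed coat-only, against 10.9% of all sites. The antenna gene LHCA4 had one in its 5′ UTR (chromosome 3, 17494921 to 17495090) at 94.4, 78.6 and 86.1, with a root-only site 30 bp away. RBCS1A, a small subunit gene of Rubisco, stood at 84.1, 64.98 and 70.4, and LHCB2.1, an antenna gene, at 31.6, 13.3 and 54.8. Their ranks were mostly low, with a median of 32.5, and 7 genes rather than 16 counted when the best 13335 peaks of each list were used. The reverse direction was held by LHCA4 (69.7 and 55.6) and by HEMA1, the glutamyl-tRNA reductase gene, at 85.6 and 90.5. At shared sites, LHCB4.2 stood at 80.6 in seed coat and 4.996 in root (limma, adjusted p = 0.00159), and 6 of 13 were called higher in seed coat and 1 in root, against 23.3% and 11.6% of all shared sites. That one was near GLK2, a factor for chloroplast development, with 25.1 and 83.1 (adjusted p = 0.00569).

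Other tissues of the silique were checked by the same counts. Of the silique wall genes, 6 of 12 with a site had a seed coat-only one and 4 a root-only one, against 20.9% and 21.9% of all genes with a site. The former included RPL of the replum (68.0, 85.1 and 62.9) and SHP1 and SHP2, which belong to this list too. The latter were JAG, FIL, ADPG1 and ADPG2, with means of 9.35 to 44.5, and FIL also had 2 seed coat-only sites. Of the 36 sites of this list, 25.0% were seed coat-only and 11.1% root-only, against 10.9% and 13.1% of all sites. The oleosin genes OLEO1 and OLEO2 and the storage protein genes CRU2, CRU3 and SESA1 to SESA3 had no site, and the storage protein gene CRA1 had 1, in all 5 lists. Of the 8 embryo genes with a site, 2 had a seed coat-only one (LEC2 and WRI1, a regulator of oil synthesis, at 71.6, 81.6 and 57.4) and 3 a root-only one (LEC1, ABI3 and WOX2, with means of 39.8, 39.7 and 49.4). Of 10 endosperm genes 5 had a site, 2 of them a seed coat-only one (MEA, 23.9 on average, and MINI3, 24.0). Of the 4 tapetum and pollen genes with a site, 0 had a seed coat-only and 1 a root-only one. Flowering time genes had 1 of 11 in each direction. The part of silique wall, embryo or endosperm nuclei in the seed coat lists was not tested.

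**Figure D2:**
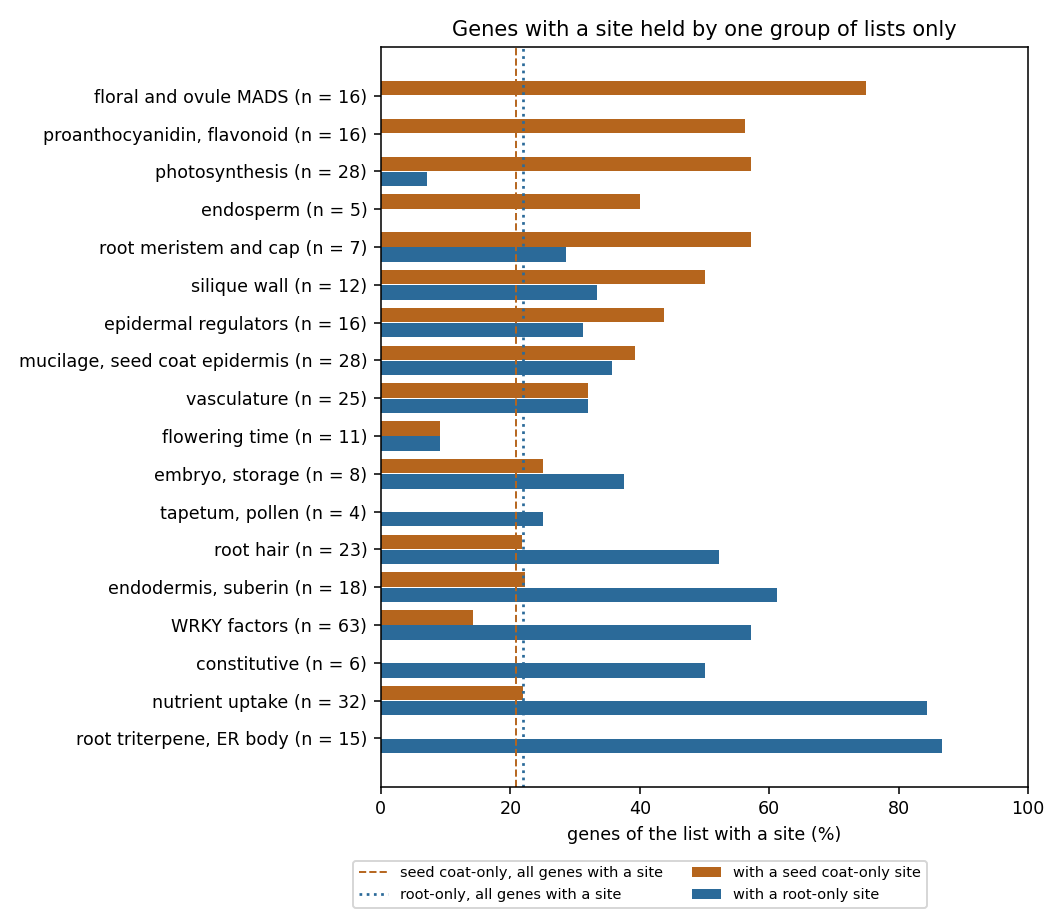
Share of the genes with a site in each list (x axis, %; n is the number of such genes) that had a seed coat-only site (brown bars) or a root-only site (blue bars). Dashed and dotted lines give the shares over all genes with a site, 20.9% and 21.9%. MADS, proanthocyanidin and photosynthesis genes stood above the brown line with few or no root-only sites, and triterpene and ER body, nutrient uptake and WRKY genes far above the blue line.

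Root-only sites were most frequent near genes of root triterpenes and ER bodies. All 15 genes had a site, 13 a root-only one and 0 a seed coat-only one, against 21.9% and 20.9% of all genes with a site. Of their 82 sites 61.0% were root-only, against 13.1% of all sites. The 3 neighbouring genes of marneral synthesis on chromosome 5, CYP705A12, CYP71A16 and the cyclase gene MRN1, had 21 root-only sites of 28 over 30.3 kb. MRN1, with 11, and CYP71A16, with 8, had more root-only sites than any other gene. The highest of MRN1 (17044821 to 17044970) stood at 98.2 and 98.8, 8558 bp upstream. THAS1, the thalianol synthase gene of another such cluster, had a site 242 bp upstream at 89.0 and 94.0. Of the ER body genes, NAI2 stood at 97.4 and 97.1 (chromosome 3, 5402981 to 5403190) and PYK10, the main beta-glucosidase, at 97.1 and 93.4. NAI1, the bHLH regulator of ER bodies, had 3 root-only sites and 2 of the 3 shared sites that limma called higher in root, at 92.5 in root and 19.7 in seed coat (limma, adjusted p = 0.00234) and at 96.1 and 60.1 (adjusted p = 0.0078). Each alternative setting gave 12 to 14 of these genes with a root-only site and 0 with a seed coat-only one.

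Of the 32 nutrient uptake genes, all with a site, 27 had a root-only and 7 a seed coat-only one. Over all genes with a site these shares were 21.9% and 20.9%, so the seed coat-only count was near its share. These genes also had many sites, 4.63 on average. Of these, 41.2% were root-only and 4.73% seed coat-only, against 13.1% and 10.9% of all sites. The proton pump gene AHA2 had 7 root-only sites, the highest at 99.4 and 99.7. NRT1.1 stood at 99.8 and 98.8, the phosphate transporter gene PHT1;1 at 99.3 and 99.2 (chromosome 5, 17402721 to 17402890), and the boron exporter gene BOR1 at 99.3 and 98.9 (chromosome 2, 19362641 to 19362790). AMT1;3, an ammonium transporter gene, had 4 root-only sites, 3 of them with means of 91.0 or more. FRU, the bHLH regulator of iron uptake also called FIT, stood at 83.1 and 89.5. The seed coat-only sites of the list were near genes of loading and transport within the plant as well as of uptake. They included HMA2 (68.7, 71.9 and 88.4) and HMA4 (58.9, 55.3 and 46.1, beside 2 root-only sites with means of 83.1 and 76.9), zinc pump genes, NRT1.5 (66.2, 75.7 and 49.2), a nitrate transporter gene of xylem loading, and PHO1 (18.9, 25.4 and 57.4), a phosphate exporter gene. Between 23 and 30 of these genes had a root-only site under the alternative settings.

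Genes of cell types inside the root had fewer. Over all genes with a site, 21.9% had a root-only site and 20.9% a seed coat-only one. Of 23 root hair genes with a site, 12 had a root-only one, with MRH1 at 96.1 and 97.3, the NADPH oxidase gene RHD2 at 83.1 and 85.03, and the expansin gene EXPA7 at 41.5 and 59.7. RHD6, the bHLH gene that starts hairs, had a seed coat-only site (16.0, 35.1 and 57.4) and a shared site called higher in root (98.0 against 52.5, limma adjusted p = 0.0117). RSL1, LRL1, MRH2 and PRP3 also had seed coat-only sites, so that 5 of the 23 had one, near the 20.9% of all genes with a site. Of 18 endodermis and suberin genes 11 had a root-only site, the highest at the NADPH oxidase gene RBOHF (92.4 and 88.2), which also had a seed coat-only site at 88.8, 75.7 and 67.8. With the best 13335 peaks of each list these counts were 7 and 5. Vascular genes had 8 of 25 in either direction, with 3.6 sites per gene on average against 2.24 for all genes with a site. Of their 90 sites, 11.1% were seed coat-only and 10.0% root-only, against 10.9% and 13.1% of all sites. REV, an HD-ZIP III gene of vascular and leaf polarity, had a seed coat-only site at 79.1, 84.0 and 91.3 and 3 shared sites called higher in root (91.5 against 34.8, 83.7 against 37.2 and 88.0 against 59.3). WOL, a cytokinin receptor gene, had root-only sites at 64.7 and 77.7 and at 52.5 and 54.6. The count of vascular genes with a root-only site was 15 without whole root replicate 1 and 13 without replicate 2, where 31.1% and 29.3% of all genes had one, and 3 with the best 13335 peaks. Of 7 meristem and root cap genes with a site, 4 had a seed coat-only and 2 a root-only one, and PLT1, a root stem cell factor gene, had one of each (54.8 and 66.9 on average). WOX5, SMB and FEZ had no site.

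WRKY genes, a family of stress and immune factors, were mostly on the root side. Of 63 with a site, 36 had a root-only and 9 a seed coat-only one, against 21.9% and 20.9% of all genes with a site. Of their 222 sites, 30.6% were root-only and 4.95% seed coat-only, against 13.1% and 10.9% of all sites. WRKY65 had 5 root-only sites, the highest at 99.4 and 99.1 (chromosome 1, 10236101 to 10236250). WRKY29, a factor of flagellin signalling, stood at 99.04 and 98.3 and WRKY17 at 97.0 and 99.04. WRKY11 had 3 seed coat-only sites, the highest in its 5′ UTR at 96.3, 83.7 and 74.3, and a root-only site 130 bp from it at 90.8 and 92.8. At the 49 shared sites of the family 14 were called higher in root and 4 in seed coat, against 11.6% and 23.3% of all shared sites. WRKY6, which acts in senescence and phosphate supply, stood at 91.2 in root and 11.9 in seed coat at a site 3141 bp upstream (limma, adjusted p = 0.00176). Between 32 and 43 WRKY genes had a root-only site under the alternatives.

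Epidermal patterning genes differed one by one. ATML1, an HD-ZIP IV gene of the outermost cell layer, had a seed coat-only site (chromosome 4, 11553181 to 11553330) at 94.4, 96.9 and 92.7. The bHLH gene EGL3 stood at 76.7, 86.4 and 82.9, and ETC3, an R3 MYB gene, at 79.6, 88.3 and 74.9. ETC1 of the same family was root-only at 71.3 and 70.0, and TRY had 3 seed coat-only sites and 2 root-only ones. In all, 7 of 16 had a seed coat-only and 5 a root-only site, against 20.9% and 21.9% of all genes with a site. The former were 11 without whole root replicate 1, where the share over all genes was 28.8%, and the latter 2 with the best 13335 peaks. These genes averaged 4.19 sites each, against 2.24 for all genes with a site. Of their 67 sites, 17.9% were seed coat-only and 8.96% root-only, against 10.9% and 13.1% of all sites. At shared sites 6 of 12 were called higher in seed coat and 0 in root, against 23.3% and 11.6% of all shared sites, among them that of GL2.

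Single sites outside the lists ranked highest of all. Among seed coat-only sites outside the mitochondrial stretch these were near GC5, PEPR1, a receptor gene for damage peptides (99.8, 99.9 and 99.7), and BRC1 (99.6, 99.96 and 99.7). Among root-only sites they were near AT2G13950 (99.97 and 100, highest in one list), ZFP6, a zinc finger gene (99.7 and 99.8), and NAC046 (99.6 and 99.7). RD22, a gene induced by drought, had the most seed coat-only sites, 6 of its 12, with means of 31.2 to 85.3.

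Of the 19780 genes with a site, 883 had sites of both directions, at a median distance of 670 bp, and in 187 the sites lay within 100 bp. BLH2, a BELL homeodomain gene, had a seed coat-only site at 99.3, 99.6 and 99.7 upstream and a root-only site at 95.8 and 95.2 in an intron, 3290 bp away. MYB4, a repressor of phenylpropanoid genes, had such sites 2590 bp apart, at 93.9, 96.1 and 98.97 and at 98.8 and 99.3. At SPDS2, a spermidine synthase gene, the sites were 10 bp apart and both above 98.8 in each list.

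The 2 classes also differed in place, composition and rank. Root-only sites lay farther from genes, 55.3% of them intergenic against 39.7%, with a median distance to the TSS of 901 bp against 577 bp. More of the seed coat-only sites were in 5′ UTRs, 15.9% against 7.43%. The average GC content of seed coat-only sites was 35.7%, close to the 36.0% of shared sites, and that of root-only sites 31.0%. Seed coat-only sites had median percentiles of 44.4 to 46.2 in their lists and root-only sites of 51.4 and 54.6. A site at percentile 50 or more in each list of its group was found for 28.4% of the former and 46.4% of the latter class, although 3 lists had to meet this on the seed coat side and 2 on the root side. The full lists before trimming held a peak of the other group at 0.642% (seed coat-only) and 7.54% (root-only) of sites. Trimming had removed 166 and 0 peaks from the root lists but 3439, 1691 and 365 from the seed coat lists. The 2 shares therefore cannot be compared between the classes. The deeper list of whole root replicate 1, made without the read mark, held 21.4% of the seed coat-only sites, and that of the 4 DPA library 10.7% of the root-only ones.

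Motif shares went with the direction. The W-box (TTGACC or TTGACT, either strand, in the central 150 bp) matched 34.3% of root-only sites but 14.8% of seed coat-only ones, compared with 20.9% of sites shared by the 5 lists and 21.5% of every site. For the G-box the order turned, with 8.72% on the seed coat side and 2.58% on the root side. It matched 11.9% of shared sites and 7.69% of every site. The CArG box matched 3.27% and 0.790%, against 2.07% of every site. Site II (TGGGCC or TGGGCT), bound by TCP factors, matched 15.4% and 5.08%, both below the 42.3% of shared sites. The element TGTCTC of auxin response factors matched 11.2% and 6.66%, against 8.54% of every site. P1BS (GNATATNC), the element of the phosphate starvation response factor, matched 3.19% and 4.82%, against 3.50% of every site. Within intergenic sites alone the W-box matched 32.7% on the root side and 13.1% on the seed coat side, and within 400 bp upstream of a TSS in 35.7% and 15.4%. GC content differs between the classes, and its part in the shares was not tested. A match says only that the letters are there.

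**Figure D3:**
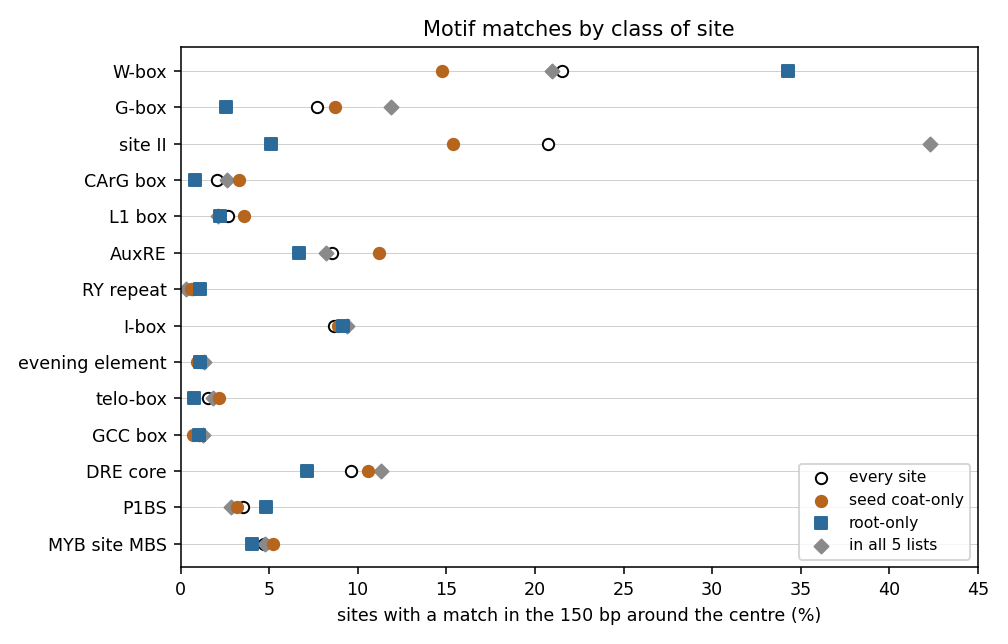
Share of sites with a match to each of 14 motifs in the central 150 bp, on either strand (x axis, %), by class: seed coat-only (brown circles), root-only (blue squares), shared by all 5 lists (grey diamonds) and every site (open circles). The W-box lies at 34.3% in the root-only class and 14.8% in the seed coat-only class, and the G-box, site II and CArG box lie the other way.

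Lists that took no part in defining the classes were then read at these sites. The 2 hair and 4 non-hair lists of the root epidermis come from lines with the ADF8 and the GL2 promoter. With 24751 peaks kept in each, root-only sites had a peak in 79.0% and 79.98% by hair list and in 64.7% to 74.6% by non-hair list. Seed coat-only sites had one in 12.1% and 12.7% by hair list and in 17.7% to 24.7% by non-hair list. Hair and non-hair lists did not overlap in either measure. The mean difference was 9.12 percentage points for root-only sites and -8.81 for seed coat-only sites, and no other of the 15 labellings gave a larger one (two-sided exact permutation test, p = 0.0667, the lowest this design allows). This test was added after the shares were seen. For the sites of all 5 lists the means were 91.5% and 89.5% (exact permutation, p = 0.333). Before trimming, the hair lists had 24751 and 25103 peaks and the non-hair lists 25953 to 29089. In these, every non-hair list but neither hair list held 155 seed coat-only sites, and the reverse was true of 7. The same counts were 83 and 21 for the sites of all 5 lists and 27 and 68 for root-only sites. The part of list size was not tested. The non-hair lists come from seedlings of another age in 3 of 4 cases and share the GL2 promoter with the seed coat line. Cut to 24751 peaks, the 7-day non-hair list held 74.6% of root-only and 17.7% of seed coat-only sites. Among the 4 non-hair lists these values were nearest to the hair lists. The part of age or promoter was not tested.

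In the lists before trimming, 53.4% of root-only sites were in every hair and non-hair list and 8.34%, or 486, in none. Of the 9 root-only sites of vascular genes, 6 were in none of these lists, among them those of WOL at 52.5 and 54.6, PXY, a receptor gene of the cambium, and LHW, a bHLH gene of vascular founder cells. Nutrient uptake genes had 5 such sites of 61, triterpene and ER body genes 3 of 50 and root hair genes 0 of 16. Of seed coat-only sites, 54.7% were in none of the epidermal lists.

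Flower lists, deposited without the read mark and with 11748 and 13098 nuclear peaks, held 33.2% of the seed coat-only but 5.18% of the root-only class in at least 1 of 2 lists. Among photosynthesis genes 16 of 17 seed coat-only sites had a flower peak, and among MADS genes 13 of 19. Among proanthocyanidin genes it was 2 of 12, and in the mucilage list 6 of 20. The flower lists come from soil-grown plants like the seed coat lists and from the same UBQ10 line as the roots. The list of 1 of the pooled 7 DPA libraries alone held 43.97% of the seed coat-only class and 0.670% of the other, which is no independent check since it is part of the pool.

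**Figure D4:**
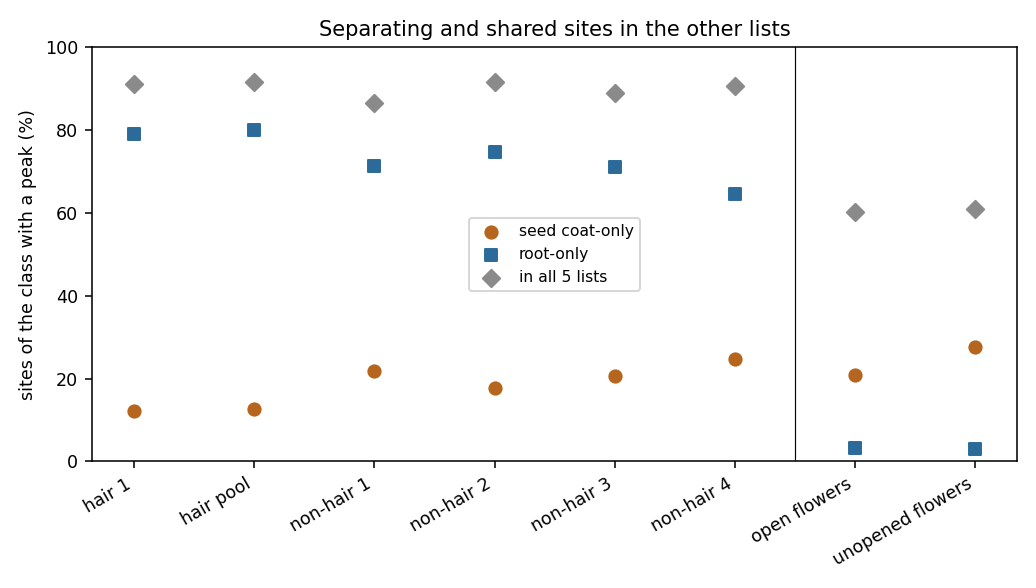
Share of each class, seed coat-only (brown circles), root-only (blue squares) and shared by all 5 lists (grey diamonds), with a peak in each other list (y axis, %). Hair and non-hair lists, left of the line, were cut to 24751 peaks each, and flower lists, right of it, are shown as deposited. Root-only sites lie between 64.7% and 79.98% in root epidermal lists and at 3.07% and 3.19% in flowers.

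The 12420 sites in all 5 lists were compared by percentile. limma called 2888 of them, 23.3%, higher in seed coat and 1445, 11.6%, higher in root (adjusted p under 0.05), with a median difference of 5.35 points toward seed coat. Ranked again among the shared sites alone, where this median was 0.759, the calls were 1883 and 1836, so on that scale the directions were nearly even. Without the 4 DPA library the counts were 1846 and 1212, without whole root replicate 1 they were 1789 and 305, and without replicate 2 they were 1352 and 260. The groups' percentiles did not overlap at 37.9% of sites for higher seed coat and 22.2% for higher root values.

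The largest differences toward seed coat, outside the mitochondrial stretch, were near AT4G14615 (93.1 against 4.00), HB21, a homeodomain gene (98.8, 97.8 and 98.2 in seed coat against 3.50 and 17.3 in root, limma adjusted p = 0.00148), and AT1G34580. The largest toward root were near AT1G07520 (5.65 in seed coat against 95.9 in root), PPC3, a phosphoenolpyruvate carboxylase gene (8.51, 8.84 and 4.69 against 97.5 and 94.1, limma adjusted p = 0.00148), AT1G17147 (11.9 against 96.7) and ANNAT4, an annexin gene (14.0 against 97.7). SOC1, a flowering MADS gene, stood at 88.1 against 30.0 at its site 30 bp upstream (limma, adjusted p = 0.00263), and the potassium channel gene AKT1 at 40.3 against 96.5 (adjusted p = 0.00507), both chosen after their values were seen, as were the called sites named with the lists. Sites called higher in seed coat had the G-box in 18.3% and the W-box in 18.9%, against 6.71% and 27.5% of those higher in root.

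**Figure D5:**
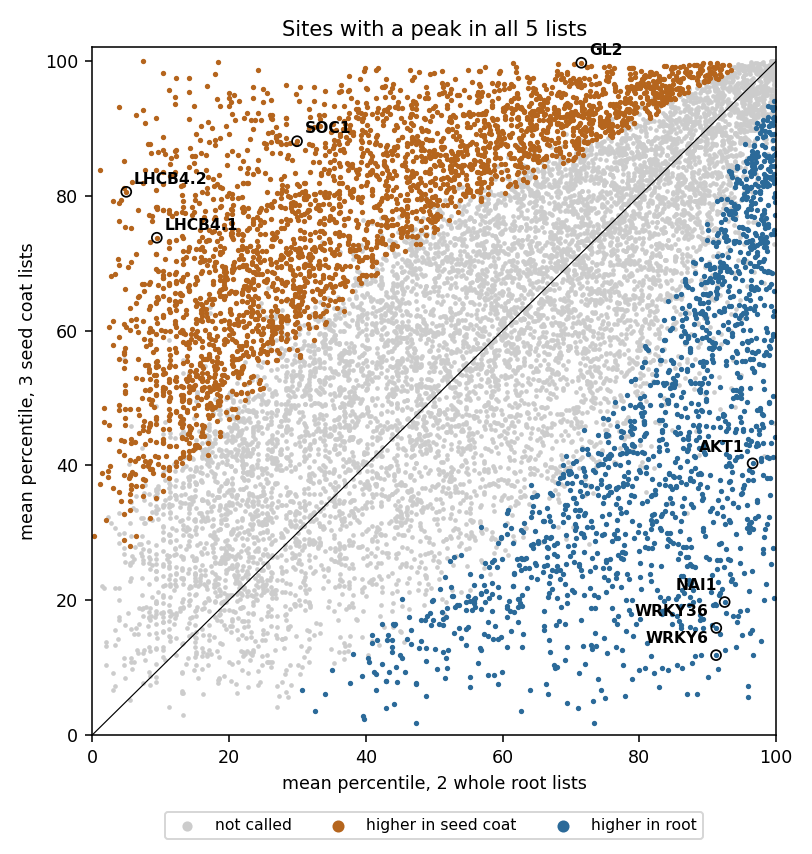
Mean percentile in the 3 seed coat lists (y axis) against that in the 2 whole root lists (x axis) for each of the 12420 sites with a peak in all 5 lists. Brown points were called higher in seed coat (2888), blue points higher in root (1445) and grey points not called (limma, adjusted p under 0.05); circles mark sites near named genes, such as LHCB4.2 at 80.6 against 4.996 and WRKY6 at 11.9 against 91.2.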

How the data were processed

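The deposited lists at the 6.8M mark hold each peak's position and the authors' score, and no read counts, so depth is unknown. The deposited lists without the mark also hold a −log10 p per peak by the authors' caller, which was not used beyond reading the positions. The submitters' processing notes name Bowtie 0.12.7 and TAIR10. No label or header names the peak caller or its threshold, or says what the 6.8M mark means; it was read as a common number of reads. Runs 1 and 2 of the 4 DPA library have identical deposited lists and were counted once. Nuclear peaks (26671 to 30110 per list) were trimmed to the lowest number by score, ties at random, merged at overlap (gap 0 bp) and assigned to the nearest TSS of 27444 protein-coding genes (RefSeq, TAIR10.1). Shared sites were tested with limma 3.58.1 in R 4.3.3 (trend, Benjamini-Hochberg), tested on simulated data. Scripts ran in Python 3.11.15. Gene lists, motifs and sites were chosen with earlier results of these data known, and patterns seen before are no independent support. Named are up to 6 members per list and direction by mean percentile and members with both directions, the 10 highest-ranked sites and 10 genes with most sites per direction, the 6 largest called differences and 8 genes with sites of both directions, from which examples are given. PMEI6, LHCB2.1, THAS1, NAI1, the transgene loci and called sites of listed genes fall outside this rule and were chosen after their values were seen.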

Additional observations from a re-analysis of the deposited data

How the results depend on the processing

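No paired analysis was possible because the replicate numbers follow accession order and the seed coat lists are partly pools. The alternatives were every peak of each list, the best 13335, peaks covering at least 50% of a site, merging over 100 bp, the 6.65M seed coat lists, whole-site motif search, limma settings and each list left out. Sites like organelle DNA left out, no peak of the other group in any list, and ranking again among shared sites were added after seeing the data. The excess of the mean Jaccard index within groups, the number of listed genes with a separating site and the number of the 14 motifs more frequent in seed coat-only sites stayed within 1.5 times their values. With the best 13335 peaks, limma called 757 sites higher in seed coat and 370 in root. Ranked again, 1883 were higher in seed coat. Leaving out 1 list in turn gave 1352 to 3493 sites higher in seed coat, 260 to 2163 higher in root, 5485 to 6856 seed coat-only and 6187 to 9019 root-only sites. Leaving out a list also loosens the rule for both classes, because fewer lists must hold or lack a peak. The cause of the other changes was not tested. Merging over 100 bp turned the sign at AT1G76880 (27.7), BXL1 (36.2), LHCA4 (23.8), PRP3 (-22.8) and WRKY28 (-22.0), since it joins neighbouring sites of both directions, and the 6.65M lists turned BXL1 (37.7). The I-box difference turned without the 4 DPA library (0.0291) and with the whole site (0.192), and lay between -1.04 and 0.0291 percentage points over the lists left out.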
